A study of Mus musculus with 4 samples.

Results

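The genes described here are Chat, Slc18a3 and Slc5a7, 3 of the 21755 protein-coding genes annotated on the mouse autosomes and chromosome X. They were chosen by name. Their Micro-C contacts were read from all pairs of 8 kb bins with both bins inside a window of chromosome 14 from 32.1 to 32.8 Mb, for Chat and Slc18a3, or of chromosome 17 from 53.9 to 54.6 Mb, for Slc5a7 (GRCm38). Insulation scores, boundaries, compartment signs, promoter contact to 400 kb and the sums with Oxnad1 also used bins outside these windows. So did all expected and background values. Chat lies at chr14:32408203-32465989 on the minus strand and covers 8 bins. Slc18a3 lies at chr14:32462438-32464850 on the same strand, inside an intron of Chat. Slc5a7 lies at chr17:54273590-54299034, also on the minus strand, and covers 4 bins.

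Acetylcholine is the transmitter by which spinal motor neurons (MNs) drive muscle, and these genes are the core of its handling at the nerve ending. Chat encodes choline acetyltransferase, which makes acetylcholine from choline and acetyl-CoA. Slc18a3 encodes the vesicular acetylcholine transporter, which loads the transmitter into synaptic vesicles, and its nesting in Chat gave the pair the name cholinergic gene locus. Slc5a7 encodes the high-affinity choline transporter, which brings choline back into the nerve ending. REST, a repressor of neuronal genes outside the nervous system, binds a sequence called RE1, and the cholinergic gene locus is a known target of it.

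Micro-C cuts cross-linked chromatin with micrococcal nuclease and ligates the ends in place, so that a count for 2 bins is a count of contacts between them and says nothing direct of RNA. All cells came from E14, a mouse embryonic stem cell (ESC) line, grown with LIF and 2 kinase inhibitors (2i). The 4 groups were WT ESCs, ESCs that lack PATZ1 after CRISPR targeting (PATZ1 KO), and MNs made from each of them through embryoid bodies with 1 μM all-trans-retinoic acid and 0.5 μM smoothened agonist (SAG), which pattern cervical MNs. Each group had 1 library from 1 pool of cells, with no replicate, so no difference given here was tested and each compares 2 libraries. Where 4 values are given in a row without names, they stand for WT ESCs, for ESCs without PATZ1, for WT MNs and for MNs without PATZ1, in this order. The study made multiple Patz1 KO lines, each from a single clone, and which of them gave these libraries is not stated. The MN cultures were taken whole, so that the share of cells that were MNs is not known from these data. Cell-type markers could not be checked as expression. In a culture of mixed cells, fewer cells with a contact and a rarer contact in each cell cannot be told apart.

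Contacts over the listed pairs summed to between 110991835 and 170946673 per library, the ESC libraries being the deeper ones, and the median listed pair held 2 contacts. The count columns carry no sample name, and each direction between PATZ1 KO and WT rests on reading the first as WT and the second as PATZ1 KO. In the bin of the start of Patz1, the targeted gene (chr11:3288001-3296000), contacts went from 562 to 399 in ESCs and from 380 to 228 in MNs under this reading. These are raw totals of a single bin, not scaled for depth or GC content, and the reading was not tested by them. The WT MN library had more contact in GC-rich and less in AT-rich regions than the WT ESC library. By decile of GC content of the bin of the gene start, the median log2 ratio of contact within genes ran from -0.25 to 0.48. Values that touch the members are given beside each result. Pairs were listed only with at least 1 contact in both libraries of a cell state, so a pair that is not listed is no true 0. Of the pairs in the chromosome 14 window, 62.4% were listed in ESCs and 58.6% in MNs, and in the chromosome 17 window 72.5% and 54.8%. Unlisted pairs entered the expected contacts as 0, and their part in MN over ESC ratios at long range was not tested.

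The start of Chat and that of Slc18a3 fall into the same bin, chr14:32464001-32472000. Every promoter value below is therefore 1 value for both genes, and 8 kb bins cannot separate them. Slc18a3 itself covers 2 bins and has no gene-body value. The promoter bin of Slc5a7 is chr17:54296001-54304000. The bin of Chat and Slc18a3 holds 50.9% G and C and that of Slc5a7 41.5%. The promoters are shown because this difference in composition moves with several of the contact values. Each runs from 250 bases before to 50 after the RefSeq gene start, 5′ to 3′ on the gene's strand (RefSeq, GRCm38.p6), with matches to GGGAGGG on either strand in capitals, a G-rich motif of the kind that PATZ1 and MAZ are known to bind. All 3 genes were found in the RefSeq table of 32851 promoters.
Chat, chr14:32465860-32466159, minus strand: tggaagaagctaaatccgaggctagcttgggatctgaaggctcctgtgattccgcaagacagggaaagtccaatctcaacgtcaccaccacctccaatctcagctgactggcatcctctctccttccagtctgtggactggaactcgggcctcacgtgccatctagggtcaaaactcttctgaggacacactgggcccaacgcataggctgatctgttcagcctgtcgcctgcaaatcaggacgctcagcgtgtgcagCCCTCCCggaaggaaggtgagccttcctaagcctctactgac
Slc18a3, chr14:32464801-32465100, minus strand: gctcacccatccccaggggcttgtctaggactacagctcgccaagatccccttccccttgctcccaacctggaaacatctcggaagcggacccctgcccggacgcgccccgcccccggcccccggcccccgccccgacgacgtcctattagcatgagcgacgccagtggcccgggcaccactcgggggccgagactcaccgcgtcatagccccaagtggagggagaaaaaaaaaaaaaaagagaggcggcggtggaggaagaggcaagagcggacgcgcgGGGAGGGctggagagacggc
Slc5a7, chr17:54298985-54299284, minus strand: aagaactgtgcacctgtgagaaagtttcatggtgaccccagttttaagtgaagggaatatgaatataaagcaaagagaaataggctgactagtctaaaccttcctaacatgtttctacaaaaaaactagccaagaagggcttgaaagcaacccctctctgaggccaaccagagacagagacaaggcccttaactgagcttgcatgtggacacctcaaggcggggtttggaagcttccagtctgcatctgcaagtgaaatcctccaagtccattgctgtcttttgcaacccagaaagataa

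The Slc18a3 promoter was 67.0% G and C with 27 CpG dinucleotides, the Chat promoter 55.7% with 10, and the Slc5a7 promoter 44.7% with 1, against a median of 52.7% over all promoters. Chat and Slc18a3 each held 1 match to GGGAGGG, on opposite strands of the promoter, and Slc5a7 held none. Such a match stands in 22.0% of all promoters. A CTCF consensus was found in 0.335% and RE1 in 0.0365% of promoters, and in none of the members' promoters. RE1 was searched as CAGCACC and GGACAG separated by 2 bases, on both strands.

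Outside the 300 bases, the promoter bin of Chat and Slc18a3 held an RE1 match, 1797 bases before the annotated start of Chat and 2936 before that of Slc18a3, within the antisense RNA gene Gm2990 but in no exon of it. RE1 matches stand in 0.182% of all 8 kb bins of the genome and CTCF matches in 1.92%. The chromosome 14 window held 2 RE1 and 3 CTCF matches in its 87 bins, and the letters of neither were found in the chromosome 17 window. A CTCF match lay in Parg outside its exons, in the bin that made the strongest long-range contact of the window. The bin at the other end of that contact held no CTCF match. The other CTCF matches of the window lay in bins at neither end of it. A match is a description of the letters only. The RE1 match of the promoter bin and the CTCF match in Parg are shown on their own strand, in capitals with 7 bases on either side.
RE1 match at the cholinergic locus, chr14:32467779-32467807, minus strand: aaccgtcCAGCACCACGGACAGttccagc
CTCF match in Parg, chr14:32229190-32229217, plus strand: taatctgCCACCAGGGGGCGCcctcaaa

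Among the genes of the window, Chat made the most contacts with Parg, 111 kb from its 3′ end, and these were higher relative to expected in MNs than in ESCs. Parg is the gene of poly(ADP-ribose) glycohydrolase, which removes poly(ADP-ribose) from proteins. It lies at chr14:32201949-32297550. Contacts between the bins of Chat and the bins of Parg were set over the number expected at the same distances on chromosome 14 in the same library (observed over expected). In ESCs they numbered 553 for WT, an observed over expected of 1.81 (95% exact interval 1.66 to 1.96), and 508 for PATZ1 KO, 1.81 (1.66 to 1.98). In MNs they numbered 602 for WT, 3.63 (3.35 to 3.93), and 605 for PATZ1 KO, 3.56 (3.28 to 3.86). Both MN libraries stood above both ESC libraries and the intervals did not overlap, while the genotypes lay close together. These and all other intervals cover counting error only, and contacts that are PCR copies would make them too narrow.

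Observed over expected between Chat and Parg was 2.01-fold higher in WT MNs than in WT ESCs, a log2 ratio of 1.01 (0.84 to 1.18), and 1.96-fold higher in PATZ1 KO MNs than in PATZ1 KO ESCs, 0.97 (0.80 to 1.15). PATZ1 KO cells differed from WT cells by 0.0060 (-0.17 to 0.18) as ESCs and by -0.029 (-0.19 to 0.14) as MNs. The MN gain was 0.98 and 0.93 after thinning to the smallest library, 0.75 and 0.70 when scaled to library totals alone, and 0.65 and 0.91 after correction for the total contacts of each bin, settings that were chosen after these data were seen. Within genes of the GC decile of Chat the median log2 ratio of contact, MN over ESC, was 0.39 in WT and -0.15 in PATZ1 KO. The part of GC content in the contact with Parg was not tested. Nor was that of unlisted pairs, which thinning of the listed pairs cannot restore. Over 13530 pairs of genes 60 to 300 kb apart with at least 50 contacts in each library, the median log2 ratio of MN over ESC was 0.33 in WT and 0.27 in PATZ1 KO. Chat and Parg stood at percentile 91.5 of these in WT and 91.6 in PATZ1 KO, and their level stood at percentile 88.1 in WT ESCs and 97.4 in WT MNs.

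**Figure D1:**
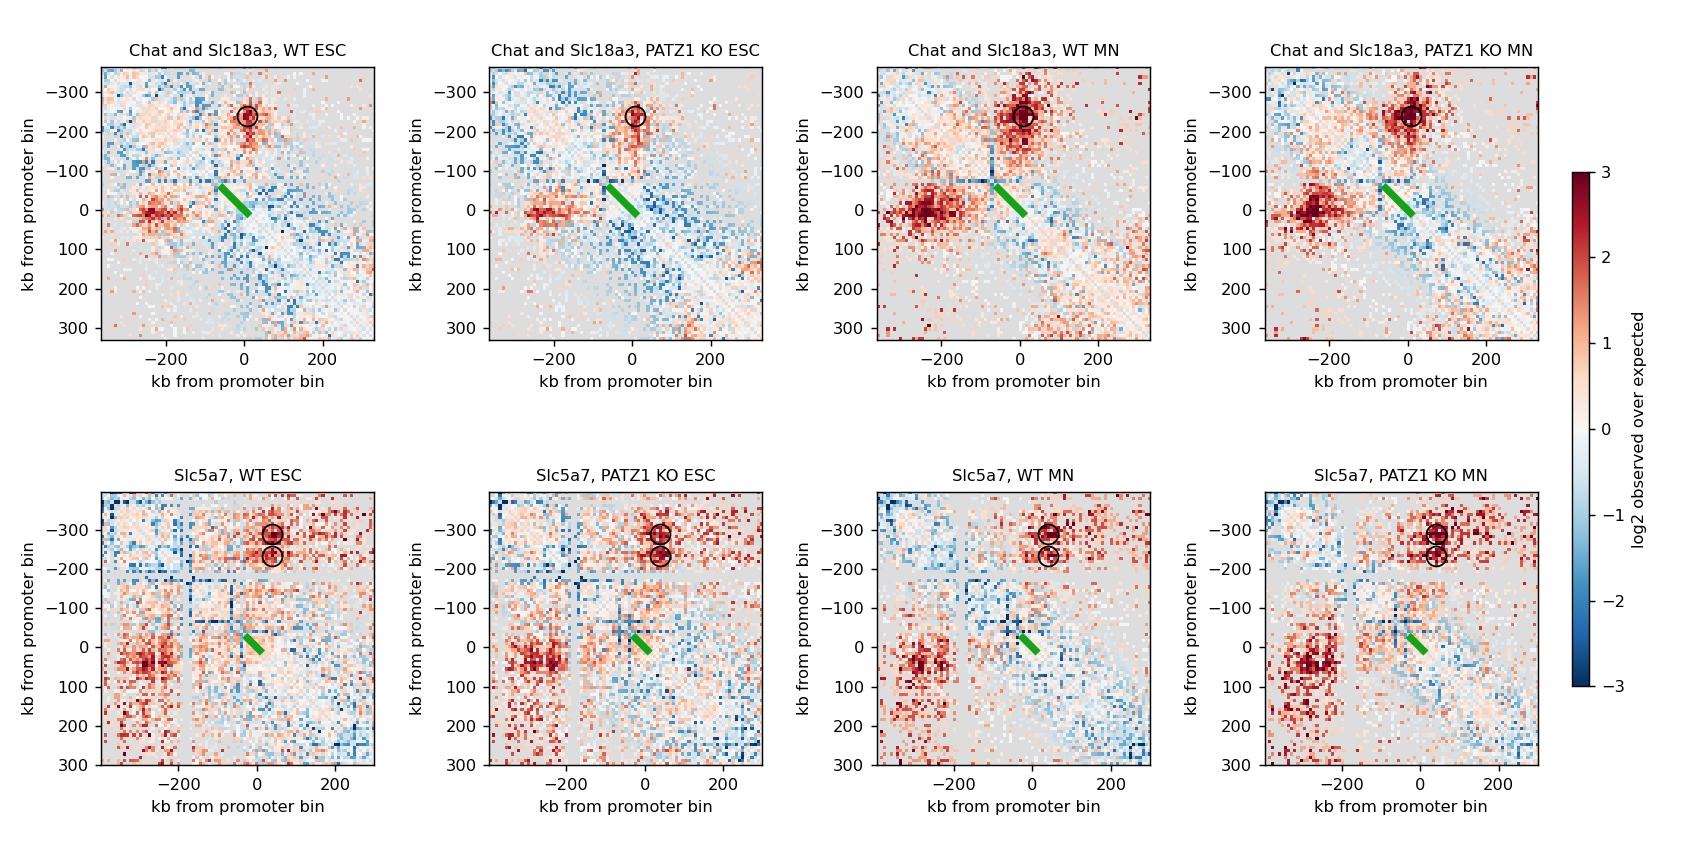
Log2 observed over expected of each pair of 8 kb bins in the windows of Chat and Slc18a3 (upper) and Slc5a7 (lower), 1 panel per library, with both axes in kb from the promoter bin (negative towards the 3′ end of the genes), gene bins as a green line, unlisted pairs in grey and the long-range pairs named in the text as circles. The circled pair of the upper panels stood at 5.41 and 4.60 over its 3 by 3 bins in ESCs and at 11.2 and 10.8 in MNs.

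The point of strongest long-range contact in this window joined the Parg bin chr14:32224001-32232000 with chr14:32472001-32480000, the bin next to the promoter bin on its upstream side, 248 kb away. That bin lies within Gm2990, an antisense gene that starts inside Chat, between the starts of Slc18a3 and Chat, and runs across the start of Chat. The single pair held 13, 10, 25 and 20 contacts, and observed over expected was 5.73 (3.05 to 9.80), 4.85 (2.32 to 8.91), 20.8 (13.5 to 30.7) and 16.5 (10.1 to 25.5). It was picked as a peak of contact (at least 40 contacts and observed over expected of at least 2 over the 4 libraries, highest within 2 bins), so that its height is a description. Of these contacts, the ESC libraries alone would not have reached 40, so the pair passed through its MN contacts and its MN over ESC ratios are a description as well. Summed over the 3 by 3 bins around it there were 110, 86, 121 and 119 contacts, and observed over expected was 5.41 (4.44 to 6.52), 4.60 (3.68 to 5.69), 11.2 (9.30 to 13.4) and 10.8 (8.95 to 12.9). This sum holds the selected pair.

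MN over ESC at this point was 1.05 (0.67 to 1.44) in WT and 1.23 (0.82 to 1.65) in PATZ1 KO, 0.76 and 0.91 when scaled to library totals, and 0.67 and 1.01 after correction for the total contacts of each bin. Between the genotypes, PATZ1 KO minus WT stood at -0.23 (-0.66 to 0.19) for ESCs and -0.053 (-0.43 to 0.32) for MNs, the latter turning to 0.19 after this correction. The same rule found 1857 pairs 200 to 696 kb apart in the genome. Over the 1855 with enough contacts the median MN over ESC ratio was 0.36 in WT and 0.30 in PATZ1 KO, so that many such pairs were higher in MNs. These pairs, too, were picked on contacts summed over all libraries, MNs included, so their median is a description as well.

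The promoter bin of Chat and Slc18a3 had its strongest partners in Parg too. Of its 7 partners 24 to 400 kb away with at least 40 contacts in all, the 3 with the highest observed over expected all lay in Parg, at 240, 232 and 208 kb. The others lay 24 or 32 kb away, so no other distant bin had enough contacts to be ranked. With all 13 bins of Parg it made 109, 106, 96 and 102 contacts, and observed over expected was 3.24 (2.66 to 3.91) and 3.44 (2.81 to 4.15) in ESCs and 5.34 (4.33 to 6.52) and 5.54 (4.52 to 6.73) in MNs, WT first. MN over ESC was 0.72 (0.31 to 1.13) in WT and 0.69 (0.28 to 1.10) in PATZ1 KO. No other setting was used for this sum, and it was not corrected for the total contacts of each bin. Those of the promoter bin were 0.833, 0.904, 1.06 and 0.967 times the chromosome mean, and their part in this ratio was not tested. The genotypes differed by 0.085 (-0.31 to 0.48) as ESCs and by 0.053 (-0.36 to 0.47) as MNs. The promoter bin belongs to Chat, so these contacts are part of those between Chat and Parg given above. The 3 by 3 bins around the strongest point also hold pairs of the promoter bin with Parg, so these sums are not independent of each other.

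The other genes on the 3′ side of Chat also had higher observed over expected with it in both MN libraries than in the ESC library of the same genotype, though not all by more than their intervals. After correction for the total contacts of each bin, MN over ESC in WT was 1.04 for Ncoa4, 0.94 for Timm23, 0.39 for Oxnad1, 0.34 for Msmb and 0.094 for Ogdhl. For 1700024G13Rik, the nearest 3′ gene, it turned from 0.29 to -0.28. In PATZ1 KO the direction held for each of these genes. On the 3′ side, Timm23, of the mitochondrial import machinery, went with Parg: its contacts with Chat were 73, 50, 102 and 73, and observed over expected 1.01, 0.750, 2.64 and 1.85. Ncoa4, the ferritin receptor of ferritinophagy, stood at 0.500 and 0.425 in ESCs and at 1.45 and 1.33 in MNs. The farthest 3′ genes, Msmb and Oxnad1, were below expected in most libraries: Msmb stood at 0.588, 0.678, 1.18 and 0.953 and Oxnad1 at 0.454, 0.428, 0.933 and 0.812. In ESCs, Ncoa4, Msmb and Oxnad1 were thus below expected, as Ercc6 was on the other side. Ogdhl, an oxoglutarate dehydrogenase-like enzyme 60.1 kb from Chat, stood at 1.15, 1.31, 1.87 and 1.53. On the 5′ side, Ercc6, a gene of transcription-coupled repair 47.5 kb away, stood at 0.582, 0.479, 0.534 and 0.395, and Prrxl1, a homeobox gene of sensory circuits, between 0.276 and 0.351. Both of these 5′ genes were below the expected level in all 4 libraries. On the log2 scale, MN over ESC was 1.39 (0.94 to 1.85) in WT and 1.30 (0.76 to 1.85) in PATZ1 KO for Timm23, and 1.54 (0.88 to 2.21) and 1.65 (0.93 to 2.40) for Ncoa4. For Ercc6 it was -0.12 (-0.48 to 0.23) in WT and -0.28 (-0.69 to 0.13) in PATZ1 KO. It went to -0.76 and -0.41 after correction for the total contacts of each bin, and turned to 0.065 and 0.064 after thinning. Between the genotypes, the interval missed 0 for Timm23 in MNs, where PATZ1 KO minus WT was -0.51 (-0.97 to -0.067), and for Ercc6 in MNs, at -0.44 (-0.87 to -0.0011), and after correction for the total contacts of each bin these were -0.14 and -0.034.

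Around Slc5a7 the picture was another one. The rule found 2 long-range pairs, both with an anchor at chr17:54336001-54344000, 40 kb upstream of the promoter bin, where no gene is annotated. The outer pair reached chr17:54008001-54016000, 328 kb away, and the inner pair chr17:54064001-54072000, 272 kb away, so that both spanned the gene. The outer pair summed to 79, 58, 57 and 57 contacts over 3 by 3 bins, with observed over expected of 5.70 (4.51 to 7.10), 4.53 (3.44 to 5.85), 7.16 (5.42 to 9.27) and 7.33 (5.55 to 9.49). The inner pair summed to 93, 94, 45 and 59 contacts, with observed over expected of 5.34 (4.31 to 6.54), 5.93 (4.79 to 7.25), 4.63 (3.38 to 6.20) and 6.22 (4.74 to 8.02). The 4 libraries overlapped at the inner pair.

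**Figure D2:**
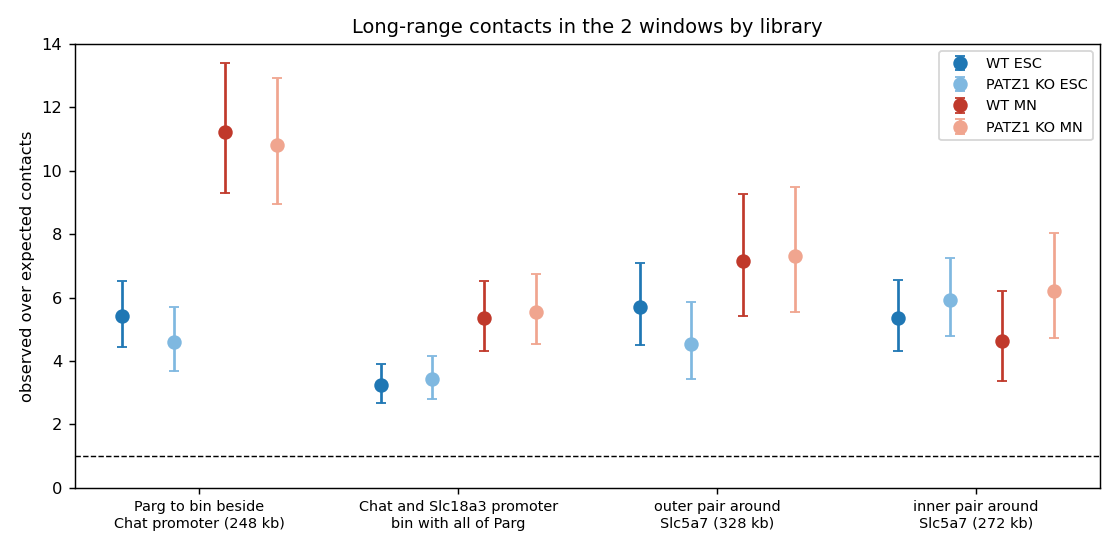
Observed over expected contacts (linear axis) of the long-range pairs over 3 by 3 bins and of the Chat and Slc18a3 promoter bin with Parg, by library, with 95% exact intervals for counting error and a dashed line at the expected level. The pair at Parg stood at 11.2 and 10.8 in MNs against 5.41 and 4.60 in ESCs, while the inner pair around Slc5a7 stood between 4.63 and 6.22.

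The single outer pair held 15, 8, 14 and 14 contacts and the single inner pair 27, 10, 10 and 14. Neither reached 40 in the ESC libraries alone, so both passed the rule only with their MN contacts. Their MN over ESC ratios are a description, and the 3 by 3 sums hold the selected pairs. MN over ESC at the outer pair was 0.33 (-0.19 to 0.84) in WT and 0.69 (0.14 to 1.247) in PATZ1 KO, and at the inner pair -0.21 (-0.75 to 0.32) and 0.070 (-0.43 to 0.55). After correction for the total contacts of each bin these were 0.72 and 0.90 at the outer and 0.39 and 0.14 at the inner pair, so that the direction in WT turned at the inner pair. Scaled to library totals they were 0.15 and 0.42 at the outer and -0.42 and -0.23 at the inner pair, where the direction in PATZ1 KO turned. PATZ1 KO minus WT ranged from -0.33 to 0.43 over both pairs and cell states, and each of these intervals held 0. In MNs at the inner pair this ratio went from 0.43 to 0.037 after the correction. The promoter bin of Slc5a7 was itself no anchor of these pairs, but its contacts with each of their anchor bins lay above expected, from few contacts. Of its 7 partners 24 to 400 kb away with at least 40 contacts in all, the 3 strongest lay 40 to 56 kb away with observed over expected of 1.60 to 1.81 over the 4 libraries. The partner at 40 kb was the anchor bin shared by both pairs. Bins farther off with fewer contacts reached higher values. The bin 232 kb towards the 3′ side, the other anchor of the inner pair, had 7, 11, 6 and 4 contacts. Observed over expected there was 3.08, 5.32, 4.71 and 3.21. The other anchor of the outer pair had 4, 8, 4 and 5 contacts with the promoter bin, at 2.23, 4.82, 3.96 and 5.14. Slc5a7 and Sult1c1, a cytosolic sulfotransferase gene that is its only protein-coding neighbour in the window, had 51, 55, 30 and 31 contacts across a gap of 283 kb, and observed over expected was 1.95, 2.27, 2.01 and 2.13.

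Contact within the genes was then compared between the cell states. Gene-body contact sums the pairs of different bins that overlap a gene, over the number expected. For Chat it was 0.953 (0.889 to 1.02) from 818 contacts in WT and 1.02 (0.949 to 1.09) from 787 in PATZ1 KO ESCs. In MNs it was 1.249 (1.16 to 1.35) from 652 in WT and 0.936 (0.859 to 1.02) from 533 in PATZ1 KO. The WT MN library was the high one and the other intervals overlapped. For Slc5a7 it was 1.598 (1.45 to 1.75) from 452 contacts, 1.44 (1.29 to 1.59) from 369, 1.06 (0.909 to 1.22) from 184 and 1.43 (1.26 to 1.62) from 253, in the same order. Here the WT MN library was the low one. The genes lay on opposite sides in ESCs: Slc5a7 stood at percentile 98.5 of 12640 genes in WT ESCs and Chat at 38.9.

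WT MNs against WT ESCs gave a log2 ratio of gene-body contact of 0.39 (0.24 to 0.54) for Chat and -0.60 (-0.85 to -0.35) for Slc5a7. A ratio of at least 0.32 in either direction counted as past the fold. Both genes were past it, Chat not when scaled to the library total or without neighbouring bins (0.30 in each), as were 39.5% of 12640 genes. The median gene stood at 0.19, and Slc5a7 at percentile 1.46. In PATZ1 KO cells the same comparison gave -0.12 (-0.28 to 0.039) for Chat and -0.0086 (-0.25 to 0.23) for Slc5a7, so that neither was past the fold, against 13.8% of genes, though Slc5a7 was past it at -0.36 after correction for the total contacts of each bin. PATZ1 KO against WT in MNs gave -0.42 (-0.58 to -0.25) for Chat and 0.44 (0.16 to 0.72) for Slc5a7, both past the fold (Chat not without neighbouring bins, at -0.19), as were 42.5% of genes, with a median of -0.21. In ESCs it gave 0.096 (-0.047 to 0.24) and -0.15 (-0.36 to 0.049), neither past the fold, against 7.86% of genes. The WT MN library stands in both comparisons that passed the fold, and the opposite signs of each gene in them are not independent of each other.

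**Figure D3:**
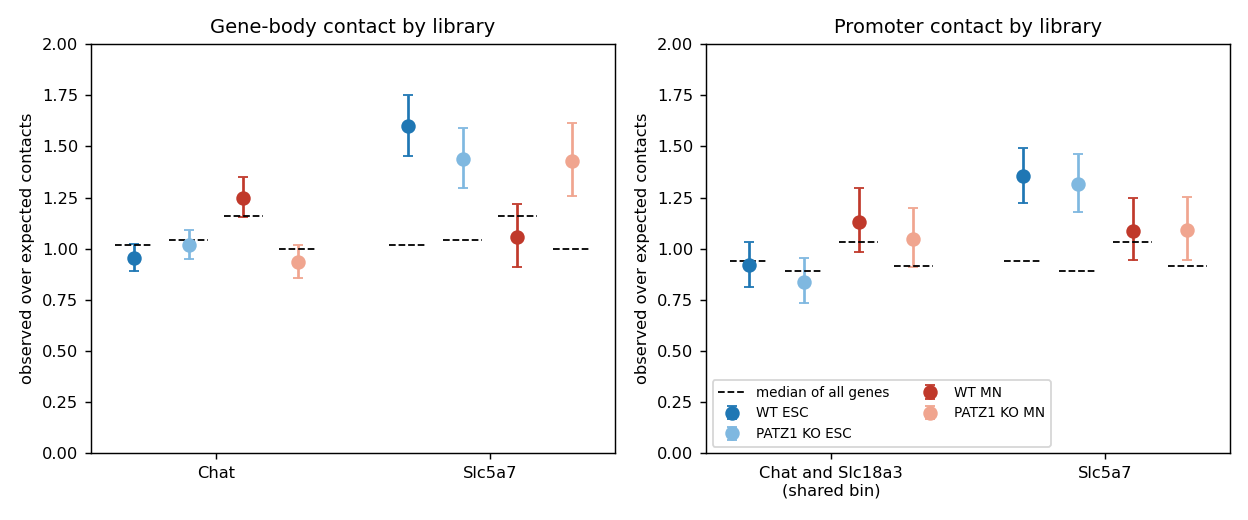
Gene-body contact (left) and promoter contact (right) as observed over expected (linear axis from 0) by library, with 95% exact intervals for counting error and the median of all genes as dashed lines. The WT MN library was the highest for Chat gene-body contact at 1.249 and the lowest for Slc5a7 at 1.06.

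GC content moved with these values. Among genes in the same decile of promoter GC content as Chat, the median log2 ratio of gene-body contact was 0.39 for WT MNs against WT ESCs and -0.43 for PATZ1 KO against WT in MNs, the same as for Chat itself, which left differences of -0.0041 and 0.017. In the decile of Slc5a7 the medians were -0.041 and 0.044, and the gene stood apart from them by -0.56 (-0.81 to -0.31) and 0.39 (0.11 to 0.67). These deciles are of the promoter bin, while the bins summed held 47.9% G and C for Chat and 37.7% for Slc5a7. On the same scale, the decile holding 47.9% had medians of 0.27 and -0.29, and that holding 37.7% of -0.25 and 0.24. What the subtraction leaves thus depends on the GC content used, and no match by the summed bins was made. The total contacts of the gene's bins moved as well. For Slc5a7 they were 1.38, 1.249, 1.02 and 1.16 times the chromosome mean in the 4 libraries, and for Chat 0.900, 0.961, 1.13 and 0.934. After division by these totals, all 4 values past the fold came near 0 or took the other sign (0.065 and 0.062 for Chat, 0.21 and -0.34 for Slc5a7). Their part in the result was not tested.

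Promoter contact sums the pairs of the promoter bin with bins 16 to 200 kb away on either side. For Chat and Slc18a3 it was 0.919 (0.815 to 1.03) from 282 contacts in WT and 0.839 (0.735 to 0.955) from 231 in PATZ1 KO ESCs, against 1.13 (0.985 to 1.29) from 214 and 1.05 (0.909 to 1.20) from 207 in MNs. For Slc5a7 it was 1.35 (1.22 to 1.49) from 402 and 1.32 (1.18 to 1.46) from 346 in ESCs, against 1.09 (0.944 to 1.247) from 205 and 1.09 (0.944 to 1.253) from 199 in MNs. The MN values were thus the higher ones for Chat and Slc18a3 and the lower ones for Slc5a7, in both genotypes, but in WT both directions turned after correction for the total contacts of each bin (-0.24 for Chat and Slc18a3 and 0.26 for Slc5a7). Slc5a7 stood at percentile 95.5 of 20428 genes in WT ESCs and 59.2 in WT MNs.

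MN over ESC was 0.30 (0.038 to 0.56) in WT and 0.32 (0.040 to 0.60) in PATZ1 KO for Chat and Slc18a3, and -0.31 (-0.56 to -0.069) and -0.27 (-0.53 to -0.015) for Slc5a7. None of these was past the fold, against 41.2% of genes in WT and 22.8% in PATZ1 KO. They lay close to the fold of 0.32, and each was past it under another setting: Chat and Slc18a3 in WT at 16 to 400 kb (0.47), in PATZ1 KO at that distance (0.33) and with expected contact over all chromosomes (0.34), Slc5a7 in WT after thinning (-0.36) and in both genotypes when scaled to the library total (-0.35 in each). The difference of PATZ1 KO from WT was -0.13 (-0.39 to 0.13) for ESCs and -0.11 (-0.40 to 0.17) for MNs at Chat and Slc18a3, and -0.040 (-0.25 to 0.17) and 0.0041 (-0.28 to 0.29) at Slc5a7. None was past the fold, against 9.29% of genes in ESCs and 38.7% in MNs. In the GC decile of Chat and Slc18a3 the median of MN over ESC was 0.35 in WT, which left -0.051, and 0.037 in PATZ1 KO, which left 0.28 (0.0031 to 0.56). In the decile of Slc5a7 it was -0.12 in WT, which left -0.20 (-0.44 to 0.051), and -0.0046 in PATZ1 KO, which left -0.27 (-0.53 to -0.010).

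**Figure D4:**
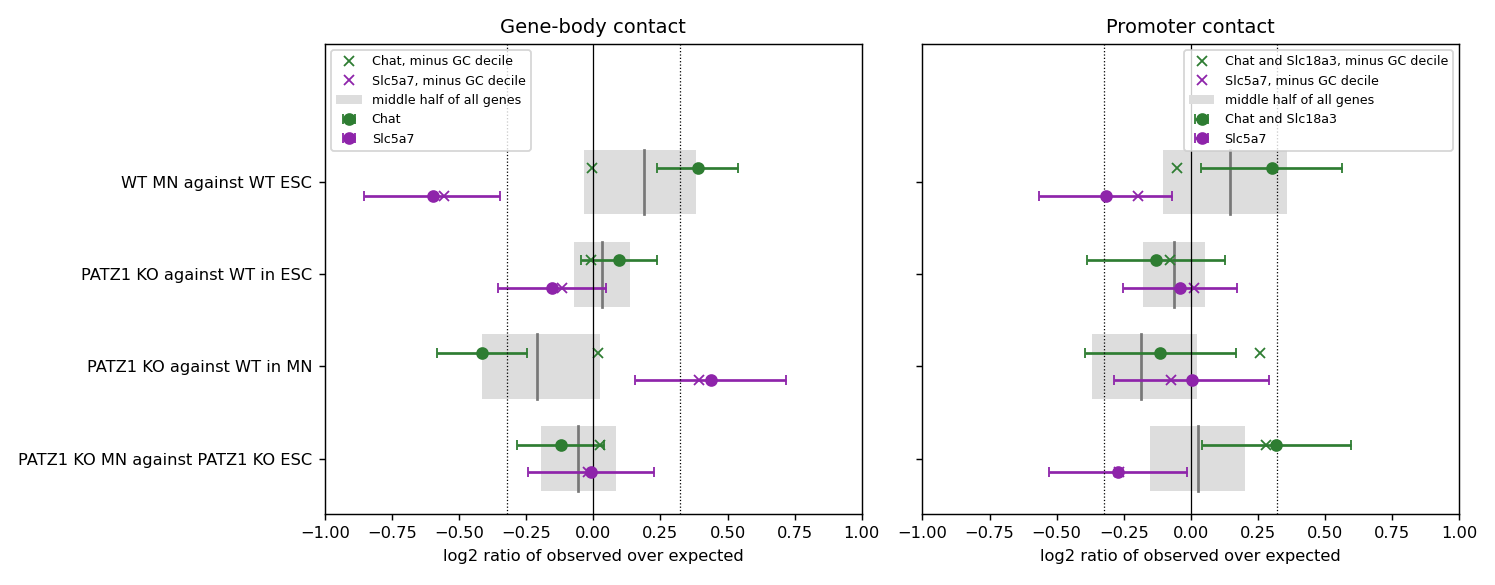
Log2 ratio of observed over expected in the 4 comparisons for gene-body contact (left) and promoter contact (right). Points show the members with 95% exact intervals for counting error. Crosses show the same value minus the median of genes in the same decile of promoter-bin GC content. Grey bars show the quartile range and median of all genes, and dotted lines the fold of 0.32 on the log2 scale. Slc5a7 gene-body contact kept -0.56 and 0.39 after this subtraction by promoter-bin GC, while Chat went to near 0. The summed bins were not matched by their own GC content.

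The ends of the genes differed at short range. The promoter bin of Chat and Slc18a3 and the next bin of the gene, 8 kb away, had 34, 28, 26 and 23 contacts, and observed over expected was 0.462, 0.419, 0.610 and 0.484. These adjacent bins thus met less than bins of chromosome 14 at that distance do in every library. At Slc5a7 the same pair had 112, 91, 45 and 55 contacts, and observed over expected was 1.55, 1.38, 1.04 and 1.24. Pairs of promoter bins held few contacts. The shared start of Timm23 and Parg, 264 kb from the Chat and Slc18a3 bin, had 7, 3, 6 and 3 contacts with it. The start of Ogdhl, 144 kb away, had 9 and 6 in ESCs, and its pair was not listed in MNs.

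Insulation scores were used to place the genes in domains. The score of a bin is the log2 of the mean count in a 240 kb square across it over the chromosome mean, so that low values mark boundaries. At Chat the nearest boundary on the 5′ side lay in Ercc6, 48 or 64 kb from the promoter bin, with scores of -1.20, -1.32, -1.04 and -1.29. On the 3′ side it lay at Timm23 and Parg in ESCs, 264 to 272 kb away, and at Ncoa4 and Msmb in MNs, 304 to 312 kb away. The scores there were -0.996, -1.19, -0.72 and -0.85. Most of Parg and all of Chat thus lay between the same low points in each library. Over the bins of Chat the mean score was -0.035 and -0.11 in ESCs and 0.42 and 0.20 in MNs. At the bin of the start of Parg, 264 kb from the promoter bin, the score was higher by 0.49 (0.36 to 0.61) in MNs in WT and 0.53 (0.40 to 0.67) in PATZ1 KO. This bin was chosen as the lowest one in WT ESCs, and the domain beside it had higher scores in MNs as well: the highest score between it and the promoter bin was 0.30, 0.25, 0.99 and 0.83. At the promoter bin of Chat and Slc18a3 the score in MNs was higher than in ESCs by 0.26 (0.15 to 0.36) in WT and by 0.071 (-0.045 to 0.19) in PATZ1 KO, the latter turning to -0.12 with a smaller square of 15 bins. It was lower by -0.30 (-0.42 to -0.17) in PATZ1 KO than in WT MNs, and that of Slc5a7 higher by 0.22 (0.098 to 0.34).

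The boundaries around Slc5a7 differed in place and score between the cell states. The nearest 3′ boundary lay 592 kb from the promoter bin in both ESC libraries, with scores of -0.55 and -0.60, and 344 kb from it in both MN libraries. At the ESC bin the MN scores were lower too, by -0.62 (-0.76 to -0.48) in WT and -0.44 (-0.58 to -0.30) in PATZ1 KO. On the 5′ side the boundary lay 40 kb from the promoter bin in WT ESCs, 48 kb in PATZ1 KO ESCs and 56 kb in both MN libraries. At the bin 56 kb upstream, the score was -0.21 and -0.31 in ESCs and -0.98 and -0.89 in MNs, WT first. MN over ESC there was -0.77 (-0.90 to -0.64) in WT and -0.58 (-0.71 to -0.45) in PATZ1 KO. At the bin 344 kb from the promoter bin, it was -0.38, -0.23, -1.19 and -1.14, and MN over ESC was -0.81 (-0.95 to -0.68) and -0.91 (-1.05 to -0.77). The promoter bin itself moved by -0.54 (-0.64 to -0.43) and -0.30 (-0.40 to -0.20), in the same direction and by less. PATZ1 KO minus WT in MNs was 0.090 (-0.067 to 0.25) at the 5′ bin and 0.050 (-0.12 to 0.22) at the bin 344 kb away. In ESCs it was -0.10 (-0.20 to -0.0056) at the 5′ bin and 0.14 (0.047 to 0.24) at the bin 344 kb away. Both of these bins were chosen as boundaries of the MN libraries, and the one at 592 kb as that of the ESC libraries. The whole window of Slc5a7 had fewer contacts than expected in WT MNs, 0.782 against 1.03 in WT ESCs, and 0.949 against 1.03 in PATZ1 KO cells. The whole window of Chat and Slc18a3 stood at 0.884 and 0.879 in ESCs and at 1.15 and 0.991 in MNs, WT first. The WT MN library was thus the high one over that window, as it was within Chat. The compartment eigenvector gave Slc5a7 the sign of B, the inactive compartment, in all 4 libraries, and Chat that of A in both ESC and of B in both MN libraries. On chromosome 14 this eigenvector correlated only weakly with gene density (r of 0.18 to 0.28 across bins of 256 kb, against 0.44 on chromosome 17), so the sign at Chat is uncertain.

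**Figure D5:**
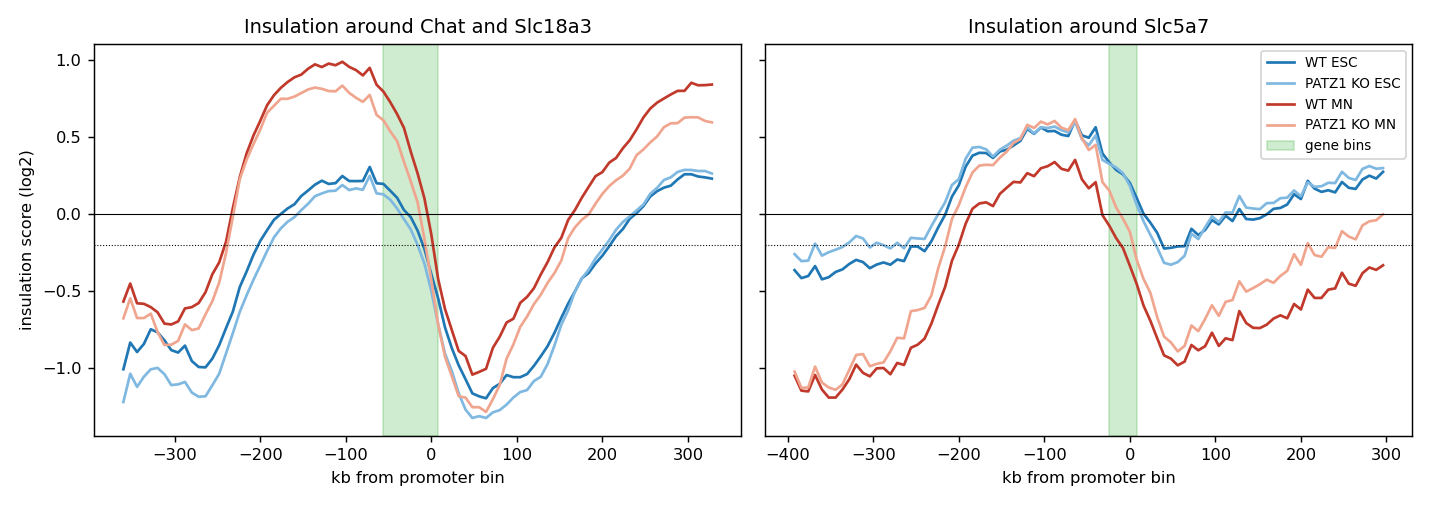
Insulation score (log2) by kb from the promoter bin around Chat and Slc18a3 (left) and Slc5a7 (right) for the 4 libraries, with gene bins shaded and a dotted line at -0.2, under which a local minimum counts as a boundary. Low points flank Slc5a7 at about 56 and 344 kb in MNs, with scores of -0.98 and -1.19 in WT MNs.

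The other cholinergic genes were read from a list of 17 genes of acetylcholine breakdown, choline supply and the receptors. Of the 14 long enough for a gene-body value, 6 were past the fold on the higher and 1 on the lower side in WT MNs against WT ESCs, beside 32.7% and 6.83% of all genes, and the median log2 ratio was 0.30 against 0.19 over all genes. The high ones were led by Chrnb2, a nicotinic receptor subunit, at 0.97 (0.65 to 1.30), with Chrna4, its usual partner, at 0.64. The low one was Bche, the gene of butyrylcholinesterase, at -0.44 (-0.57 to -0.31). PATZ1 KO against WT in MNs gave 1 higher, again Bche at 0.39 (0.25 to 0.54), and 6 lower, Chrnb2 being at -0.84 (-1.20 to -0.48), beside 6.36% and 36.2% of all genes, with a median of -0.19 against -0.21. In these comparisons, which share the WT MN library, Bche had the signs of Slc5a7 and Chrnb2 those of Chat. In PATZ1 KO MNs against PATZ1 KO ESCs, Bche stood at 0.18 (0.057 to 0.30) and Slc5a7 near 0. In ESCs 2 of the 14 were higher in PATZ1 KO and none was lower, beside 4.82% and 3.04% of all genes. In PATZ1 KO MNs against PATZ1 KO ESCs none was higher and 2 were lower, beside 3.88% and 9.94%.

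Promoter contact was measured for all 17. In WT MNs against WT ESCs 5 were past the fold on the higher and 1 on the lower side, beside 29.3% and 12.0% of all genes, and the median was 0.18 against 0.14. Colq, the collagen tail of acetylcholinesterase, stood at 0.53, Chka, a choline kinase gene, at 0.54, and Bche at -0.72. PATZ1 KO against WT gave none past the fold in ESCs, where 1.71% of all genes were higher and 7.58% lower, and 1 higher and 6 lower in MNs, where 7.58% were higher and 31.1% lower. The counts of the list in MNs were thus near the background. Ache, the gene of acetylcholinesterase, was among the lower ones in MNs at -0.38 (-0.74 to -0.016). Of the 12 other protein-coding genes of the windows, 5 were higher and none was lower in WT MNs than in WT ESCs by promoter contact, and 5 were lower and none was higher in PATZ1 KO MNs than in WT MNs, set against the same shares of all genes. All 8 ESC markers and 8 MN markers of the lists were measured as well, by promoter contact in WT MNs against WT ESCs. Of the ESC markers, Esrrb at 0.49 and Pou5f1 at 0.37 were past the fold on the higher side, and Sox2 at -0.73, Klf4 at -0.68 and Nanog at -0.40 on the lower. Of the MN markers, Lhx3 at 0.60, Lhx4 at 0.47 and Mnx1 at 0.33 were past it on the higher side and none on the lower, Isl1 being the lowest at -0.25. Values of both signs stood in each list.

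The genes whose promoter contact over the 4 libraries was most like that of Chat and Slc18a3 were Barhl2, Arrb1 and Cox6b2, with root mean square differences of 0.022 to 0.029 on the log2 scale over 20425 genes. For Slc5a7 they were Krtap19-5, Ndufs4 and Olfr535, with differences of 0.014 to 0.025.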

How the data were processed

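Micro-C contacts were analysed in 4 libraries, WT and PATZ1 KO, in ESCs and MNs. The values used are counts of contacts between 8 kb bins, whole numbers that the authors deposited without scaling as part of the HiCcompare output for each cell state. Mapping and matrices were made by Dovetail for the authors. The submitters' processing notes name mm10, and no chromosome ran past its end in GRCm38. The other columns of the lists hold the authors' adjusted frequencies, log2 differences, scores and p-values of PATZ1 KO against WT, and none was used.

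Expected contacts were the mean over the chromosome's pairs of equal distance in that library, with unlisted pairs as 0. Genes with at least 50 contacts in each library entered the background (GENCODE vM21). Past the fold means a log2 ratio of at least 0.32 in either direction, and intervals are exact at the 95% level (Clopper-Pearson for ratios, Poisson for levels). Python 3.11.15 with numpy 2.4.6, pandas 2.3.3 and scipy 1.17.1 was used. Of the measures, only gene-body contact was tested on simulated counts, and these did not carry the rule by which pairs were listed. Depth ran from 110991835 to 170946673 listed contacts per library, which are not the full depth.

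The genes named are the members, the protein-coding genes of their windows, the cholinergic and marker lists, and the 3 genes nearest in promoter contact to each member. The members and lists were chosen with earlier results of these data known, and the long-range and gene-to-gene sums were added after these data were seen. Alternatives were another expected, coverage, depth, scaling, GC content, distances and squares.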

Additional observations from a re-analysis of the deposited data

Results flagged for a closer look

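The difference between PATZ1 KO and WT had opposite signs in ESCs and MNs for 3 values. For Chat gene-body contact the ratio on the log2 scale was 0.096 for ESCs and -0.42 for MNs, a difference of -0.51. These signs were no longer opposite without neighbouring bins (-0.088 and -0.19) and after correction for the total contacts of each bin (0.0038 and 0.062), and both turned when the median of the GC decile was subtracted (-0.0099 and 0.017). For Slc5a7 gene-body contact it was -0.15 and 0.44, a difference of 0.59, and both signs turned with correction for total contacts (0.24 and -0.34). For Slc5a7 promoter contact it was -0.040 and 0.0041, a difference of 0.044, and the signs were the same in most other settings, such as after thinning (-0.078 and -0.013). With 1 library in each group the differences were not tested. The median of genes in the same GC decile as Chat went from 0.11 in ESCs to -0.43 in MNs, and that of the decile of Slc5a7 from -0.035 to 0.044 for gene-body contact.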

How the results depend on the processing

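Of the 8 gene-body values (2 genes in 4 comparisons) all lay within the main counting interval with expected contact over all chromosomes, after thinning and when scaled to the library total, and so did all 8 promoter values, also at 16 to 400 kb and 40 to 200 kb, but some crossed the fold of 0.32. Chat gene-body contact in WT MNs against WT ESCs was no longer past it when scaled to the library total or without neighbouring bins (0.30 in each). For promoter contact in MNs against ESCs, values now past it were 0.47 in WT and 0.33 in PATZ1 KO for Chat and Slc18a3 at 16 to 400 kb, 0.34 in PATZ1 KO with expected contact over all chromosomes, and for Slc5a7 -0.36 in WT after thinning and -0.35 in WT and in PATZ1 KO when scaled to the library total. Correction for the total contacts of each bin gave, for gene-body contact, 0.065 for Chat and 0.21 for Slc5a7 in WT MNs against WT ESCs, 0.062 and -0.34 in PATZ1 KO against WT in MNs, 0.24 for Slc5a7 in ESCs, and 0.12 and -0.36 in PATZ1 KO MNs against PATZ1 KO ESCs. For promoter contact it gave -0.24 for Chat and Slc18a3 and 0.26 for Slc5a7 in WT MNs against WT ESCs, and 0.19 for Slc5a7 in PATZ1 KO against WT in ESCs. Subtracting the median of the GC decile turned Chat gene-body contact to -0.0041 in WT MNs against WT ESCs and 0.017 in PATZ1 KO against WT in MNs, and gave -0.051 and 0.26 for the promoter contact of Chat and Slc18a3 in these comparisons. Without neighbouring bins, Chat gene-body contact was -0.088 in PATZ1 KO against WT in ESCs, -0.19 in MNs, and 0.19 in PATZ1 KO MNs against PATZ1 KO ESCs. The insulation difference at Chat and Slc18a3, 0.26 in WT MNs against WT ESCs and 0.071 in PATZ1 KO MNs against PATZ1 KO ESCs with squares of 30 bins, was 0.13 with squares of 15 bins and 0.42 with 50 bins in the first, and -0.12 and 0.33 in the second, whose sign thus turned. At Slc5a7 it was -0.54 and -0.30, and -0.40 and -0.17 with 50 bins. At 1.5-fold, 8.97%, 1.09%, 10.9% and 1.06% of genes were past the fold in gene-body contact and 11.4%, 1.48%, 8.01% and 3.42% in promoter contact, in WT MNs against WT ESCs, PATZ1 KO against WT in ESCs and in MNs, and PATZ1 KO MNs against PATZ1 KO ESCs. The causes were not tested. No paired analysis was possible because each group had 1 library. Most single pairs of bins held few contacts, which limits what can be detected at 1 pair.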
